A study of Mus musculus with 8 samples.

Results

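Deletions and duplications of mouse mitochondrial DNA (mtDNA) that begin and end between the first base of the annotated sequence and the end of the last tRNA gene before *ND5* are described here. This region of 11741 bp holds both rRNA genes, *ND1* and *ND2*, the annotated light-strand origin, *COX1* to *COX3*, *ATP8*, *ATP6*, *ND3*, *ND4L* and *ND4*, and makes up 72.0% of the 16299 bp circle. An entry was a member when its start and its end both lay in the region and its end came after its start, and 21 of the 72 listed entries (29.2%) met this rule. They describe 17 distinct events among 56 in all. Each of the 8 libraries came from 1 mouse, with 1 male and 1 female in each of 4 groups, all on the C57BL/6N background. Hearts were taken at 8 weeks from *L/L* mice, whose *Rnaseh1* alleles carry loxP sites, and from *L/L, cre* mice, which carry the same alleles together with Cre driven by the muscle creatine kinase promoter (*Ckmm-cre*), so that other cells of the heart keep the gene. Brains were taken between 23 and 25 weeks from *Mgme1+/+* and *Mgme1-/-* mice. The male heart libraries were made from mitochondrial DNA and the female ones from total DNA, so that sex and kind of DNA cannot be told apart in hearts, whereas every brain was sequenced from total DNA. The working name of the region reaches to *ND4*, but 0 event ends lay in *ND4*.

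The region encodes the RNA parts of the mitochondrial ribosome and subunits of respiratory complexes I and IV and of ATP synthase, with tRNA genes set between most of them. The light-strand and heavy-strand origins divide the circle into a minor arc, with the rRNA genes, *ND1* and *ND2*, and a major arc with *COX1*. Deletions of mtDNA often lie between short direct repeats, which are copies of the same bases at both ends of the lost stretch.

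The sequences of 9 events are shown because they were listed in more than 1 library, had the most supporting reads in a library, or had the longest repeat. They are from the RefSeq mouse reference (GRCm38, plus strand). Duplicated segments are given whole with 15 bp on either side, and deletions as 15 bp on either side of each end. Capitals mark the bases that are alike at both ends when the event is joined as listed.
*mt-Rnr1* duplication of 60 bp, chrM:71-160: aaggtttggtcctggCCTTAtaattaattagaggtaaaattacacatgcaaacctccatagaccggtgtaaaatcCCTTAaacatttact
*mt-Rnr2* duplication of 86 bp, chrM:1190-1305: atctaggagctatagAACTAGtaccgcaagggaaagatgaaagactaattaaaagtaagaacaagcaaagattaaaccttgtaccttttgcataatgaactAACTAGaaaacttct
*ND1* duplication of 64 bp, chrM:3268-3361: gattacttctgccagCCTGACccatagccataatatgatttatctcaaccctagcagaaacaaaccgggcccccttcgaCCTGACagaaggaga
*COX1* duplication of 57 bp, chrM:5670-5756: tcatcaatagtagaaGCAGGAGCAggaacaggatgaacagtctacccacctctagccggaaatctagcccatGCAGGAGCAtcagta
*COX2* duplication of 60 bp, chrM:7260-7349: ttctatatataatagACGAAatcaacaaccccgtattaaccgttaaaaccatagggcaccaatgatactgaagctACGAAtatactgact
*COX3* duplication of 63 bp, chrM:8944-9036: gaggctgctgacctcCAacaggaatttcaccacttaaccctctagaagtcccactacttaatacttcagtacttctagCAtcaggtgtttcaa
*ND3* to *ND4L* duplication of 141 bp, chrM:9733-9903: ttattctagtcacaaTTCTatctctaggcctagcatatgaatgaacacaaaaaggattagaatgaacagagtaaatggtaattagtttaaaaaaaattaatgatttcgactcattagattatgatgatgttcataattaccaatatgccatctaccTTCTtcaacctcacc
*ND2* deletion of 563 bp, start, chrM:4228-4258: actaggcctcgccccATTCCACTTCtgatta
*ND2* deletion of 563 bp, end, chrM:4790-4820: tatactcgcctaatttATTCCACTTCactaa
*ATP6* to *COX3* deletion of 407 bp, start, chrM:8240-8270: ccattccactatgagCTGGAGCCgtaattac
*ATP6* to *COX3* deletion of 407 bp, end, chrM:8646-8676: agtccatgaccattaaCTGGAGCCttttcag
In 14 of the 17 distinct events these bases were the deposited direct repeat. The exceptions were the 86 bp duplication of *mt-Rnr2*, for which a repeat of the same length in another register (GAACTA) was deposited, a duplication in *mt-Rnr1* (chrM:790-874) deposited with TT where the ends as listed share 0 bases, and a duplication from the tRNA-Tyr gene into *COX1* (chrM:5268-5417) deposited with no repeat where the ends share 1 base.

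The evidence behind each event was thin. Of the 21 entries, 15 rested on 2 supporting reads, which is the smallest number listed, 6 on 3 or more, and 0 on 10 or more. Heteroplasmy, the supporting reads as a percentage of supporting and reference reads, ran from 0.0182% to 0.1888% with a median of 0.0342%. All 21 of their intervals overlap, since the highest lower bound, 0.0642%, lies below the lowest upper bound, 0.0663%. As a floor for each library, 3 reads were divided by the median depth at all its events. It is not a limit of listing, since some events of 2 reads are listed below it. With the male named first, it was 0.0110% and 0.0302% for *L/L* hearts, 0.0256% and 0.181% for *L/L, cre* hearts, 0.0326% and 0.0346% for *Mgme1+/+* brains, and 0.0426% and 0.0287% for *Mgme1-/-* brains. The female *L/L, cre* heart, with a median of 1655.5 reads, was therefore the library in which low heteroplasmies were hardest to see. Intervals given with events are 95% Wilson intervals, and both intervals and floors cover counting error only. Events of 1 library share its DNA and are not replicates, so groups were compared over mice.

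**Figure D1:**
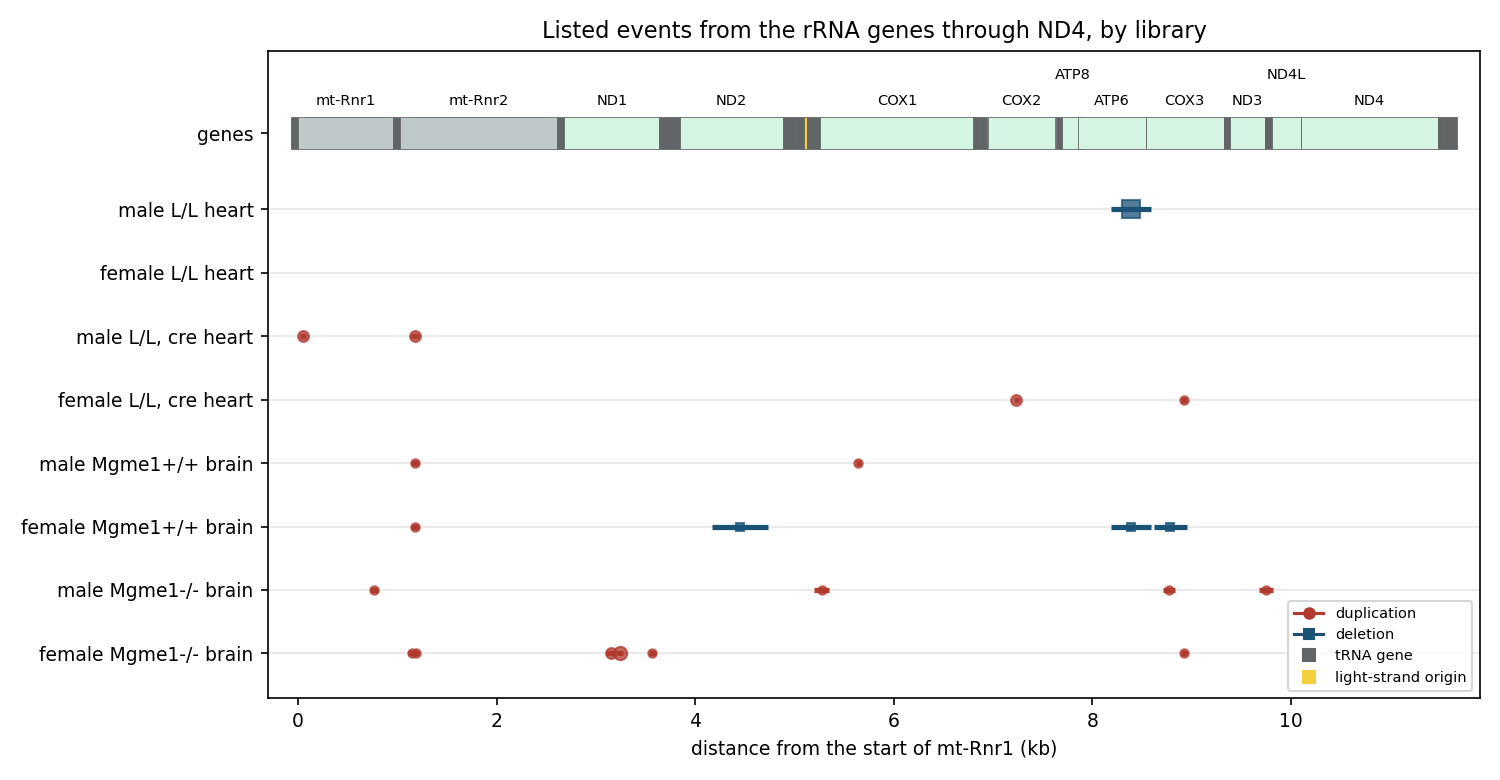
Position of the 21 listed events in each library (lines span the event, symbols grow with supporting reads, from 2 to 6) against the distance in kb from the start of *mt-Rnr1*, with the annotated genes on top. The 4 deletions lie in 2 control libraries, and no event reaches *ND4*.

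The rRNA genes carried 7 entries, all of them duplications, which describe 5 distinct events. In *mt-Rnr1*, which encodes the rRNA of the small ribosomal subunit, a duplication of 60 bp (chrM:86-145) began 16 bp from the start of the gene in the male *L/L, cre* heart, at 0.0502% (interval 0.0171 to 0.148; 3 of 5974 reads). The *Mgme1-/-* male had a duplication of 85 bp in this gene (chrM:790-874), at 0.0342% from 2 of 5856 reads. *mt-Rnr2*, which encodes the rRNA of the large subunit, held 5 entries and the event of the region that was listed in most libraries. This duplication of 86 bp (chrM:1205-1290) was listed in 3 libraries, at 0.0296% (0.0101 to 0.0871; 3 of 10120 reads) in the heart of the *L/L, cre* male, at 0.0182% (0.00499 to 0.0663; 2 of 10989 reads) in the male *Mgme1+/+* brain and at 0.0199% (0.00545 to 0.0725; 2 of 10058 reads) in the female *Mgme1+/+* brain. The intervals overlap, as those of 2 or 3 reads are bound to, and say nothing of the 5 libraries that did not list it. It was listed in both control brains and in neither *Mgme1-/-* brain. At the depth of the nearest event of each brain, its lowest listed heteroplasmy would give 2 and 1.83 reads in the *Mgme1+/+* brains and 1.07 and 1.35 in the *Mgme1-/-* brains, male first. The *Mgme1-/-* values are the lower ones and fall short of the 2 reads that every listed event has, so an absence there cannot be told apart from limited depth. No event of the other 3 hearts lay within 1 kb, so the deposited counts do not give their depth at this place.

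The female *Mgme1-/-* brain had 2 other duplications at the same place in *mt-Rnr2*. One of 68 bp (chrM:1223-1290) ended at the same base as the 86 bp duplication, with 2 of 7427 reads and 0.0269%, and one of 80 bp (chrM:1176-1255) overlapped both, with 2 of 7578 reads and 0.0264%. Position 1290 was thus an end of 2 distinct duplications in 4 libraries. The part of *mt-Rnr2* beyond it held 0 event ends.

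*ND1*, which encodes a membrane subunit of complex I, held 3 entries, all duplications and all in the female *Mgme1-/-* brain. The first covered 91 bp (chrM:3172-3262) at 0.0414% (0.0141 to 0.122; 3 of 7251 reads), the next 64 bp (chrM:3283-3346) at 0.0542% (0.0211 to 0.139; 4 of 7376 reads), and the last 73 bp (chrM:3600-3672) at 0.0251% from 2 of 7964 reads. The 64 bp duplication had the most supporting reads of any duplication in the region, and its ends lie in copies of the 6 bp repeat shown in capitals. No other library listed an event in *ND1*, including the male of the same genotype, so the gene did not separate the genotypes. *ND2*, which encodes another subunit of the membrane arm, held a single event, a deletion of 563 bp (chrM:4243-4805) in the female *Mgme1+/+* brain at 0.0231% from 2 of 8660 reads. It is the longest event of the region and has its longest repeat, 10 bp. At the far end of the region, a duplication of 141 bp (chrM:9748-9888) in the male *Mgme1-/-* brain ran from *ND3* through the whole tRNA-Arg gene into *ND4L*, both complex I genes, at 0.0664% from 2 of 3010 reads. The *ND4* gene (chrM:10167-11544), which encodes a proton-pumping subunit, was overlapped by 0 members. The last member ended at 9888 and the next listed event, a deletion of 417 bp from 12064 to 12480 outside the region with 2 reads and 0.0194% in the female *Mgme1-/-* brain, lay beyond 2175 bp without an event end in any library.

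The genes of complex IV, which reduces oxygen at the end of the respiratory chain, were overlapped by 9 entries in 6 libraries. *COX1*, its catalytic subunit, held a duplication of 57 bp (chrM:5685-5741) in the male *Mgme1+/+* brain at 0.0239% from 2 of 8361 reads, with the longest repeat among the duplications, 9 bp. The male *Mgme1-/-* brain had the duplication of 150 bp from the tRNA-Tyr gene into *COX1*, at 0.0334% from 2 of 5992 reads. It lies beyond the light-strand origin (chrM:5160-5191), which 0 members overlapped. *COX2*, the subunit that accepts electrons from cytochrome c, held a duplication of 60 bp (chrM:7275-7334) in the heart of the *L/L, cre* female, at 0.1888% (0.0642 to 0.554; 3 of 1589 reads). This was the highest heteroplasmy of the region, and it stood in the library with the fewest reads, where the floor was 0.181%.

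*COX3*, a core subunit without redox centres, was overlapped by 6 entries and held 10 event ends, or 12.8 per kb, against 6.32 per kb in *mt-Rnr2*, 6.27 per kb in *ND1* and 1.94 per kb in *COX1*. These counts are summed over the 8 libraries and take an event once for each library that listed it. They are on another scale than the densities per library given below and cannot be set against those. With each distinct event taken once, the densities were 8.93 per kb in *COX3*, 3.79 in *mt-Rnr2*, 6.27 in *ND1* and 1.94 in *COX1*, so that *mt-Rnr2* came below *ND1*. They rest on few events and carry no test. A duplication of 63 bp (chrM:8959-9021) appeared in the heart of the *L/L, cre* female at 0.1161% (0.0319 to 0.422; 2 of 1722 reads) and in the female *Mgme1-/-* brain at 0.0373% (0.0102 to 0.136; 2 of 5366 reads). The same 2 reads were set against different depths. Both are knockout libraries of different tissues. At the depth of the nearest event, 0.0373% would give 6.73 reads in the heart of the *L/L* male, 1.45 in the male *Mgme1-/-* brain and 1.82 in the female *Mgme1+/+* brain, none of which listed it, and the other 3 libraries had no event within 1 kb. The male *Mgme1-/-* brain had a duplication of 120 bp (chrM:8782-8901) at 0.0516% from 2 of 3879 reads. A deletion of 333 bp (chrM:8689-9021) in the female *Mgme1+/+* brain, at 0.0409% from 2 of 4890 reads, ended at the same base as the 63 bp duplication, so position 9021 was an end of a deletion and of a duplication in 3 libraries.

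*ATP6*, which encodes part of the proton channel of ATP synthase, was touched by 1 distinct event. The deletion of 407 bp from *ATP6* into *COX3* (chrM:8255-8661) had the most supporting reads of all members, with 0.0332% (0.0152 to 0.0725; 6 of 18059 reads) in the heart of the *L/L* male, and was also listed in the female *Mgme1+/+* brain at 0.0413% (0.0113 to 0.151; 2 of 4838 reads). Both are control libraries, and the other 2 control libraries and all 4 knockout libraries did not list it. At the depth of the nearest event, 0.0332% would give 1.29 and 1.78 reads in the male and female *Mgme1-/-* brains and 0.572 in the heart of the *L/L, cre* female, against 1.61 in the female *Mgme1+/+* brain that listed it. All 4 values are below 2 reads, and that of the female *Mgme1-/-* brain is above that of the brain that listed the deletion, so they do not show whether it was absent or missed. The hearts of the *L/L, cre* male and the *L/L* female and the male *Mgme1+/+* brain had no event within 1 kb. The deposited counts therefore do not give their depth at this place. *ATP8*, the other ATP synthase gene, was overlapped by 0 members. Of the tRNA genes of the region, those for tyrosine and arginine were overlapped by 1 event each, both in the male *Mgme1-/-* brain.

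**Figure D2:**
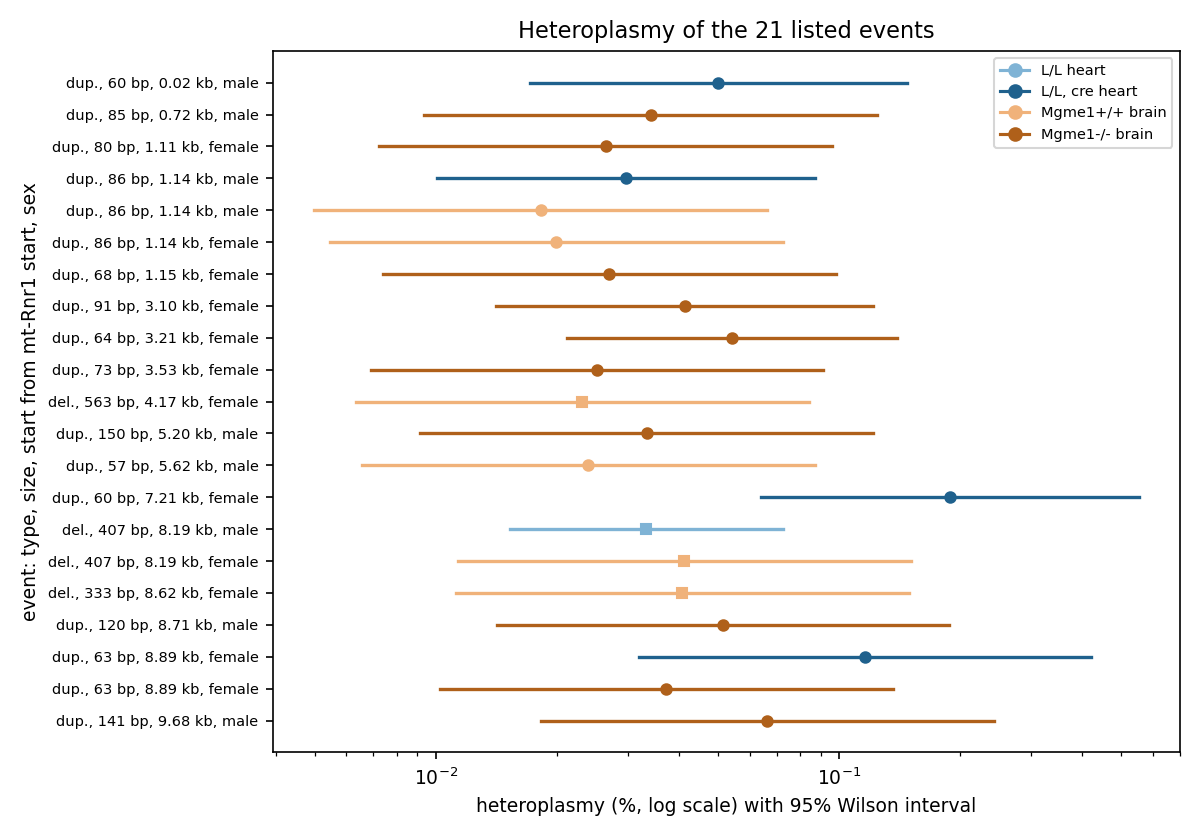
Heteroplasmy in percent on a log scale for each of the 21 entries, ordered along the region, with 95% Wilson intervals (circles, duplications; squares, deletions; colours, groups). All 21 intervals overlap, and the entries of the female *L/L, cre* heart, at 0.1888% and 0.1161%, have the highest values.

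Deletions and duplications of the region differed in size without overlap. The 3 distinct deletions measured 333 to 563 bp with repeats of 8 to 10 bp, and the 14 distinct duplications 57 to 150 bp with deposited repeats of 0 to 9 bp and a median of 4.5 bp. A repeat of 8 bp or longer was present at 3 of 3 deletions and at 1 of 14 duplications. For comparison, such repeats were present at 5 of the 8 distinct deletions and 7 of the 31 distinct duplications listed elsewhere on the circle. Counted by position, ends that share 10 bp or more occur at 0.0984% of all positions where a segment of 563 bp can lie in the region. Ends that share 8 bp or more occur at 0.159% for 407 bp and 0.167% for 333 bp. Among the 14 duplications, ends that share as many bases as deposited, or more, occur at 0.0856% to 0.830% of positions for 7 and at 3.36% to 100% for the other 7. A shared stretch was counted at each position to which its junction can slide. An event's own positions are therefore included where its ends share that many bases, so these are not chance rates. The 11 of 11179 positions for 563 bp and 10 of 11685 for 57 bp are only those of the events' own repeats. The median size of all distinct duplications was 76.5 bp in the region and 150 bp elsewhere. Elsewhere on the circle, distinct duplications spanned 62 to 15926 bp and distinct deletions 252 to 557 bp, so that sizes overlapped there.

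**Figure D3:**
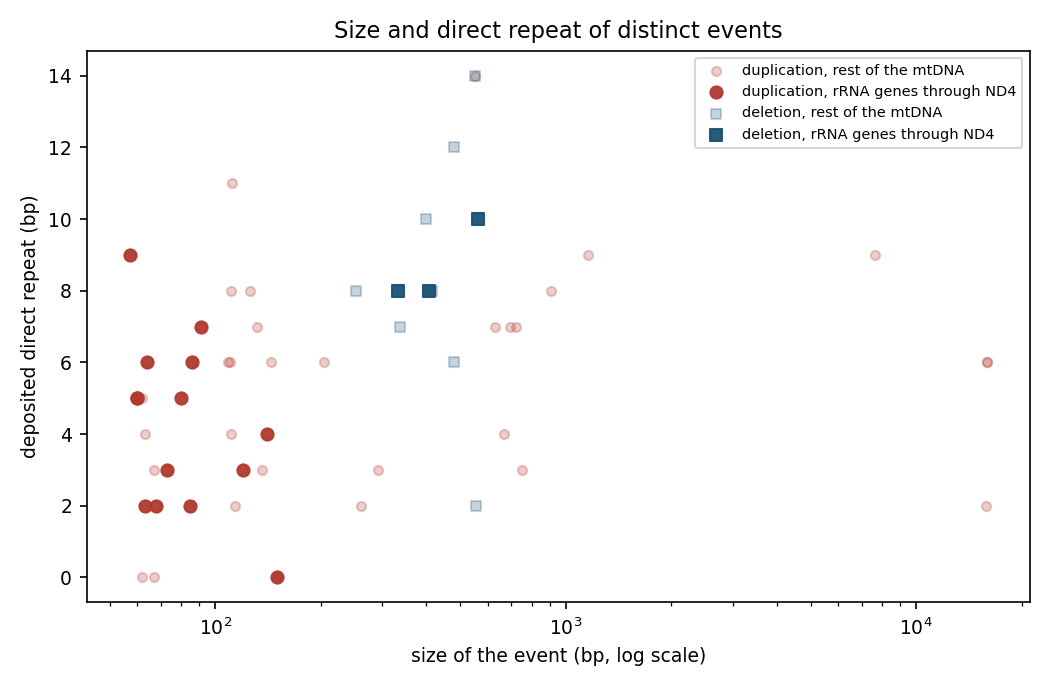
Deposited direct repeat in bp against the size of each distinct event in bp on a log scale (circles, duplications; squares, deletions; strong colours, rRNA genes through *ND4*; pale colours, rest of the mtDNA). In the region, duplications measure 57 to 150 bp and deletions 333 to 563 bp.

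Events inside protein genes also differed in whether their size was a multiple of 3, the length of a codon. Within *COX1*, *COX2* and *COX3* the sizes of 5 of 5 distinct events were multiples of 3, namely duplications of 57, 60, 120 and 63 bp and the deletion of 333 bp. Within *ND1* and *ND2* this held for 0 of 4 events, and in protein genes outside the region for 9 of 16. The counts are too small to call this particular to a gene, and no test was made. The GC content of the duplicated segments ran from 27.1% to 54.4% with a median of 34.2%, near the 36.5% of the whole region.

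In brains, the male and female *Mgme1-/-* mice had 4 and 6 events in the region and the male and female *Mgme1+/+* mice 2 and 4. The groups overlap (5 ± 1.41 against 3 ± 1.41, SD, n = 2 mice each; exact 2-sided permutation test, p = 0.667). Per 10000 reads of median depth the difference was 2.32, and with at least 0.05% heteroplasmy or the largest brain floor it was 1.5. In these alternatives the groups did not overlap (p = 0.333 in the exact permutation test). Outside the region, the *Mgme1-/-* brains had 13 and 23 listed events and the *Mgme1+/+* brains 3 and 3, males first. Over the whole circle they had 17 and 29 against 5 and 7. Neither of these counts overlapped, without any filter, so the separation is not particular to the region. Split by type, the *Mgme1-/-* brains had 4 and 6 duplications and 0 deletions each, and the *Mgme1+/+* brains 2 and 1 duplications and 0 and 3 deletions, males first. Duplications did not overlap between the genotypes (5 ± 1.41 and 1.5 ± 0.707, SD of 2 mice per genotype; difference 3.5, p = 0.333 in the exact permutation test). Outside the region the *Mgme1-/-* brains had 12 and 19 duplications and the *Mgme1+/+* brains 0 and 2, which did not overlap either. Deletions of the region overlapped (0 ± 0 and 1.5 ± 2.12, SD of 2 mice per genotype; difference -1.5, p = 1 in the exact permutation test), since all 3 came from the female control, and without that mouse the difference was 0. Outside the region, deletions numbered 1 and 4 in *Mgme1-/-* and 3 and 1 in *Mgme1+/+* brains, males first, which overlapped too. With 2 mice against 2 the smallest p is 0.333, so no comparison of these groups can pass 0.05, and p = 0.333 in the exact permutation test says only that the 2 groups did not overlap. The duplications had 8 and 15 supporting reads in the male and female *Mgme1-/-* brains and 4 and 2 in those of the *Mgme1+/+* male and female (difference 8.5, n = 2 per genotype, p = 0.333 in the exact permutation test). Without the *Mgme1-/-* female this difference was 5 and that in listed events 1, as the latter did without the *Mgme1+/+* male. Summed over duplications, heteroplasmy was 0.1856% and 0.2113% against 0.0421% and 0.0199% (0.198% ± 0.0182 and 0.0310% ± 0.0157, SD of 2 mice per genotype; p = 0.333 in the exact permutation test). The *Mgme1-/-* values lie above the control values in both measures, as they do outside the region, where duplications had 37 and 66 reads against 0 and 4 and summed to 0.4988% and 0.6025% against 0% and 0.0465%. With at least 3 supporting reads, the duplications that were left were 2 of the *ND1* events of the female *Mgme1-/-* brain, and the difference became 1.

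In hearts, both *L/L, cre* mice had 2 events, all duplications. The *L/L* male had 1 and the *L/L* female 0, the male's being the deletion from *ATP6* into *COX3*. Duplications numbered 2 ± 0 and 0 ± 0 (SD of 2 mice per genotype; p = 0.333 in the exact permutation test), and all events 2 ± 0 and 0.5 ± 0.707 (p = 0.333 in the same exact test). Neither count overlapped between the genotypes in the region. Outside it, duplications numbered 2 and 0 in *L/L, cre* and 0 and 1 in *L/L* hearts, which overlapped. Over the whole circle duplications numbered 4 and 2 against 0 and 1, which did not overlap, and listed events 7 and 2 against 3 and 2, which did. With at least 3 supporting reads, events of the region numbered 2 and 1 against 1 and 0, which overlapped (p = 0.667 in the exact permutation test). The difference in duplications of the region was then 1.5 (p = 0.333 in the same exact test). Deletions of the region numbered 0 and 0 against 1 and 0 (difference -0.5, p = 1 in the exact permutation test over 2 mice per genotype), and without the male *L/L* heart the difference was 0. The duplication reads were 6 and 5 against 0 and 0 (p = 0.333 in the exact permutation test). Outside the region they were 4 and 0 in *L/L, cre* and 0 and 2 in *L/L* hearts, male first, which overlapped. The duplications summed to a heteroplasmy of 0.0798% in the *L/L, cre* male and 0.3049% in the *L/L, cre* female, against 0% in both *L/L* hearts (0.192% ± 0.159 for *L/L, cre*, SD of 2 mice; p = 0.333 in the exact permutation test). The male and female values differ in kind of DNA and in depth as well as in sex. The difference between genotypes was 0.0798 percentage points without the female *L/L, cre* heart and 0.3049 without the male one. Outside the region the duplications summed to 0.0482% and 0% in *L/L, cre* and 0% and 0.0203% in *L/L* hearts, male first, which overlapped. With a minimum heteroplasmy of 0.181%, the highest of the 4 heart floors, the *COX2* duplication of the *L/L, cre* female was the single heart event left.

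**Figure D4:**
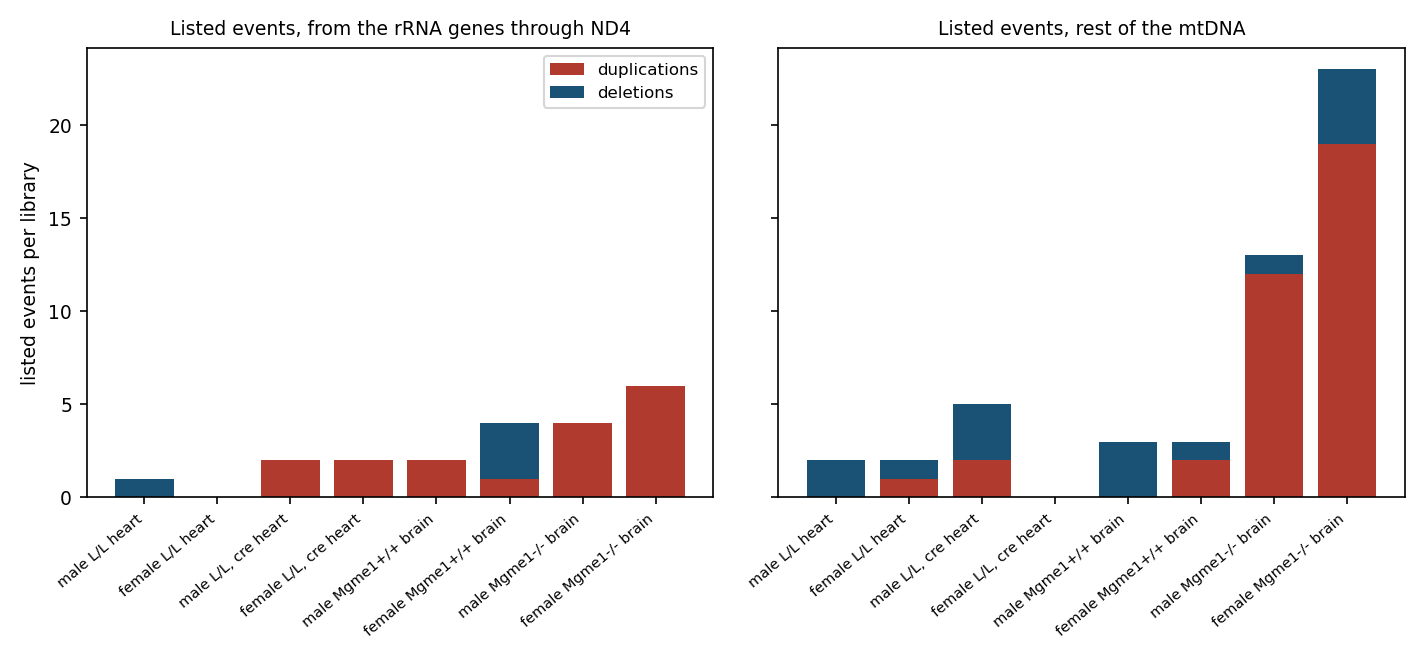
Listed duplications and deletions per library in the region from the rRNA genes through *ND4* (left) and in the rest of the mtDNA (right). The male and female *Mgme1-/-* brains have 4 and 6 duplications on the left and 12 and 19 on the right, against 2 and 1 on the left and 0 and 2 on the right in the *Mgme1+/+* brains.

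Per kb, the region held fewer events than the rest of the circle in 7 of 8 libraries. Across libraries it had 0.224 ± 0.164 events per kb and the rest 1.40 ± 1.71 (SD, n = 8 libraries), a mean difference of -1.18. Single ends gave 0.468 ± 0.358 per kb inside and 2.74 ± 3.36 per kb outside (SD, n = 8; difference -2.27). Without the female *Mgme1-/-* brain these differences were -0.695 and -1.35. Events with 1 end in the region count as outside in the first measure. The bounds were chosen with event positions of these libraries known, so these densities are a description and carry no test. The exception was the female *L/L, cre* heart, which listed 2 events, both in the region. By group, again with the male first, *L/L* hearts had 0.0852 and 0 events per kb inside and 0.439 each outside, and *L/L, cre* hearts 0.170 each inside and 1.10 and 0 outside. *Mgme1+/+* brains had 0.170 and 0.341 inside and 0.658 each outside, and *Mgme1-/-* brains 0.341 and 0.511 inside and 2.85 and 5.05 outside. The gap was widest in the *Mgme1-/-* brains. With at least 3 supporting reads the mean differences were -0.375 for events and -0.750 for ends, and with duplications alone -0.806 and -1.54. In the female *Mgme1+/+* brain and the male *Mgme1+/+* brain, 57.1% and 40% of listed events lay in the region, and in the female and male *Mgme1-/-* brains 20.7% and 23.5%.

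Depth was uneven along the region. In all 4 brains, the libraries with members on both sides of the light-strand origin, members of the minor arc had more reads by their median than members of the major arc, with median depths of 10989 and 8361 reads in the male and 9359 and 4864 in the female *Mgme1+/+* brain, and of 5856 and 3879 in the male and 7427 and 5366 in the female *Mgme1-/-* brain. The ratios were 1.31, 1.92, 1.51 and 1.38, in that order. These medians rest on 1 to 5 events each and cover only the region, and in the male *Mgme1-/-* brain 1 member of the major arc (5992 reads) had more reads than the member of the minor arc (5856). Events outside the region had median depths of 9210 and 8854 reads in the *Mgme1+/+* brains and 7339 and 10628 in the *Mgme1-/-* brains, male first, above both arcs of the region in the *Mgme1-/-* brains. Because depth was uneven, events with the same 2 reads had heteroplasmies from 0.0199% to 0.0413% in the female *Mgme1+/+* brain and from 0.0334% to 0.0664% in the male *Mgme1-/-* brain, a 2.08-fold and a 1.99-fold range set by reference reads alone. In the male *Mgme1+/+* and female *Mgme1-/-* brains the ranges were 1.31-fold and 1.48-fold. Against events elsewhere on the circle, the median depth at members was 0.652 times as high in the *L/L* male, 0.667 in the *L/L, cre* male, 1.05 in the *Mgme1+/+* male, 0.765 in the *Mgme1+/+* female, 0.663 in the *Mgme1-/-* male and 0.696 in the *Mgme1-/-* female.

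**Figure D5:**
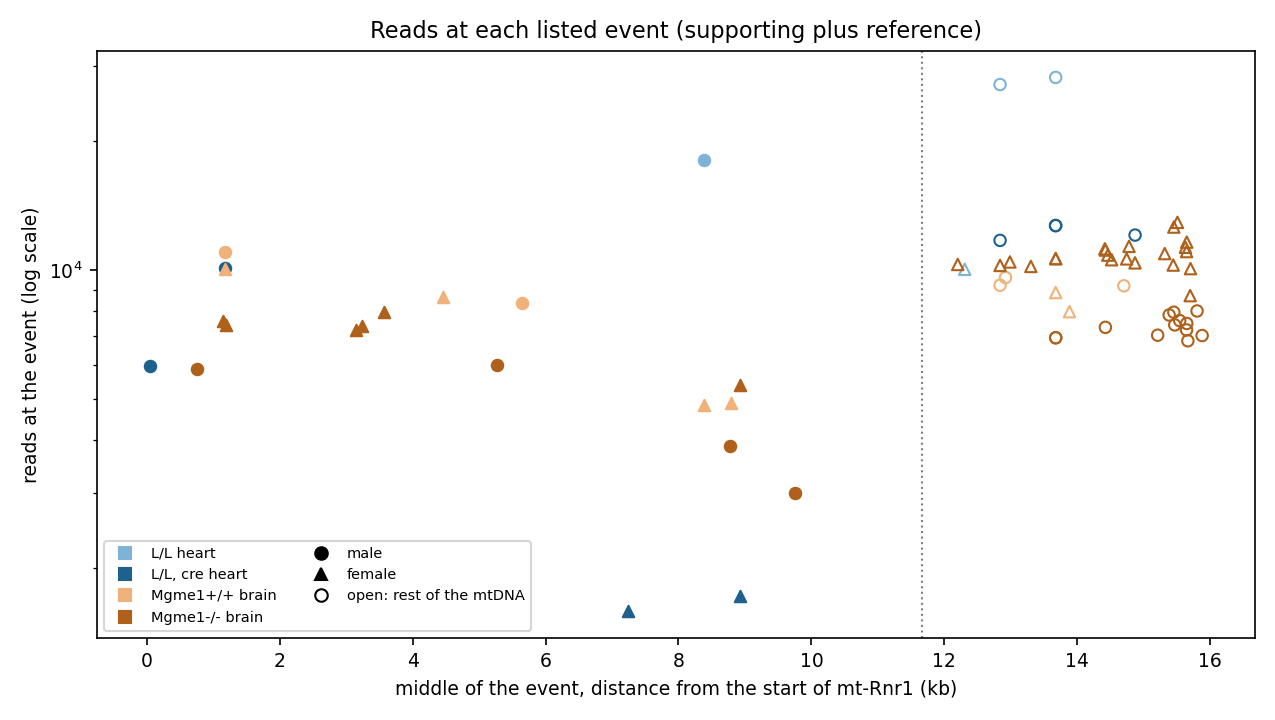
Supporting plus reference reads at each listed event (log scale) against the distance of its middle from the start of *mt-Rnr1* in kb, with filled symbols for the region and open ones for the rest of the mtDNA, which starts at the dotted line (4 duplications of 7661 bp or more are left out). In the male *Mgme1-/-* brain, depth is 3879 and 3010 reads at the events in *COX3* and from *ND3* to *ND4L*, against 5856 and 5992 at its other members.

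Nuclear copies of mtDNA cover the members unequally. The joined sequences of the 17 distinct events matched the nuclear chromosomes 0 times, the 3 deletions included. The intact mtDNA around both ends matched a nuclear copy with 100% identity over 120 bp for 6 events, which lie between 7275 in *COX2* and 9888 in *ND4L*. Between the light-strand origin and *COX2*, the best matches at the start and the end had identities of 100% and 97.5% for the duplication from the tRNA-Tyr gene and 99.2% and 98.3% for that within *COX1*. The *ND2* deletion had a match of 98.3% at its end and none at its start. For the events of the rRNA genes and *ND1*, the best nuclear matches had identities of 76.5% to 86.4%, and around the *mt-Rnr2* events 0 matches were found. The reads had been aligned to the mtDNA alone, so reads from such copies could count as reference reads. Members with 100% identity at both ends had 3010 to 3879 reads and the other members 5856 to 5992 in the male *Mgme1-/-* brain, 4838 to 4890 and 8660 to 10058 in the female *Mgme1+/+* brain, and 5366 and 7251 to 7964 in the female *Mgme1-/-* brain. Some of the other members have near-identical copies too, as given above, and the share of nuclear reads was not tested.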

How the data were processed

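The 8 libraries, 2 mice in each of 4 groups, were grouped by their sample labels. The authors aligned reads to the mouse mtDNA (GRCm38, also named in the submitters' processing notes) and listed events with MitoSAlt, whose version and cut-offs are not given in the sources used here. The authors deposited the counts of supporting and reference reads per event, not normalised, and the heteroplasmy as a percent, with positions in bp. The deposited percent was recomputed from the counts and lay within 0.0001 for 72 of 72 entries. In the deposited counts, depth is given only at listed events, and the coverage plots of the paper were not used.

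Genes came from the RefSeq annotation of GRCm38. The members and gene lists were chosen with earlier results of these data known, the bounds of the region among them, so densities are given without a test. Named events follow a rule: every event with type, position, size and reads, intervals for those with 3 or more reads or in more than 1 library, and sequences for events in more than 1 library, with the most reads in each library (ties taken by heteroplasmy) or with the longest repeat. Groups were compared by exact 2-sided permutation tests of means (10 comparisons). The functions were tested on simulated data. The nuclear chromosomes of GRCm38 were searched by blastn (BLAST 2.17.0, e-value limit 0.001, words of 11 bases) for each junction and each intact end with up to 60 flanking bp per side, and a match had to cover 25 bp of either flank. Python 3.11.15, NumPy 2.4.6, pandas 2.3.3, SciPy 1.17.1 and matplotlib 3.10.9 were used. Alternatives were minimum reads of 3 and 10, and minimum heteroplasmies of 0.05% and of the largest floor of each tissue. Others were either end in the region, merging within 10 bp, leaving out each mouse, pairs of 1 sex and scaling to 10000 reads of median depth. For densities they were also duplications alone and hearts or brains alone.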

Additional observations from a re-analysis of the deposited data

How the results depend on the processing

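Under 138 alternatives with a value, 0 turned a direction. With at least 3 supporting reads the brain differences (*Mgme1-/-* minus *Mgme1+/+*) moved from 2 to 1 for events, from 3.5 to 1 for duplications, from 0.16745 to 0.0478 percentage points for summed duplication heteroplasmy and from 8.5 to 3.5 for duplication reads. With a heteroplasmy of at least 0.05%, and likewise with at least 0.0426%, the largest brain floor, the last 3 were 1.5, 0.0861 and 4. In hearts, the largest floor moved the differences (*L/L, cre* minus *L/L*) from 1.5 to 0.5 for events, from 2 to 0.5 for duplications, from 0.192 to 0.0944 for heteroplasmy and from 5.5 to 1.5 for reads. Each of these filters leaves fewer events. Per 10000 reads of median depth, which is another unit, the heart differences were 6.71 events, 6.89 duplications, -0.184 deletions and 17.7 duplication reads, and the brain differences 2.32, 4.05, -1.73 and 9.54. The female *L/L, cre* heart weighs most in the scaled heart counts of events, duplications and reads. Its median depth of 1655.5 reads, against 11729 in the *L/L, cre* male, comes from 2 events, both in the region. Medians of the other libraries include events outside it.

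Within the male and female brain pairs, the differences were 2 and 5 for duplications, 0 and -3 for deletions and 4 and 13 for duplication reads. Within the male and female heart pairs they were -1 and 0 for deletions and 0.0798 and 0.3049 for heteroplasmy. Leaving out each mouse gave brain ranges of 1 to 3 for events, 2.5 to 4.5 for duplications, -3 to 0 for deletions, 0.155 to 0.180 for heteroplasmy and 5 to 12 for reads. The heart ranges were 1 to 2, 2 to 2, -1 to 0, 0.0798 to 0.3049 and 5 to 6.

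The density difference per kb, a description, was -1.18 for events and -2.27 for ends. It was -0.375 and -0.750 with at least 3 supporting reads, -0.806 and -1.54 with duplications alone, -1.96 and -3.77 in brains alone and -0.387 and -0.774 in hearts alone. Leaving out each library gave -1.37 to -0.695 for events and -2.65 to -1.35 for ends.

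At least 10 supporting reads left no event for any of the 10 group results, and the deletions had no value with either minimum heteroplasmy, nor in brains with 3 reads. Depth limits every event of 2 reads, most of all in the female *L/L, cre* heart.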

Other observations

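A pair of entries had 1 end in the region and the other outside it, and so were not members. In the female *Mgme1-/-* brain a listed duplication of 7661 bp, from 12871 in *ND5* across the control region to 4232 in *ND2*, had 2 supporting reads, 0.0220% and a repeat of 9 bp. The 8638 bp of the circle outside the duplicated segment include the light-strand origin. The end of this duplication lies 11 bp before the start of the 563 bp deletion of *ND2* in the female *Mgme1+/+* brain. In the female *Mgme1+/+* brain a listed duplication of 15877 bp, from 218 in *mt-Rnr1* to 16094, had 2 reads, 0.0215% and a repeat of 2 bp. Its segment covers all but 422 bp of the circle.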
